A study of Homo sapiens with 8 samples.

Results

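The transcription factors that set hepatocyte identity were followed through benzo[a]pyrene exposure of HepG2 cells by RNA sequencing. The set holds 9 genes, taken by name and with no threshold on a value: HNF4A, FOXA1, FOXA2, FOXA3, CEBPA, NR1H4, NR0B2, NR5A2 and ONECUT1. They are 9 of 49733 gene IDs in the deposited tables, and all 9 passed the filter on low counts that left 14746 genes to test. HepG2 is an established line that the labels give as hepatocellular carcinoma, grown here as a monolayer. The 4 groups were cells exposed to 2 µM benzo[a]pyrene (BaP) for 12 h, cells exposed to 2 µM BaP for 24 h, cells given 0.5% DMSO as vehicle for 12 h, and cells given 0.5% DMSO for 24 h. Each group had 2 libraries of poly-A RNA, from independent experiments per the labels. As a single tumour-derived line without other liver cells, it limits what can be read about hepatocytes in the liver.

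HNF4A, a nuclear receptor, and the FOXA factors, which can open closed chromatin, sit with CEBPA, a basic leucine zipper factor, and ONECUT1, also called HNF6, in a network of factors that bind each other's regulatory regions and those of liver genes. NR1H4, also called FXR, is the bile acid receptor. It induces NR0B2, also called SHP, a receptor-like corepressor without a DNA-binding domain, which in turn holds back NR5A2, also called LRH-1, on bile acid synthesis genes. BaP, a polycyclic hydrocarbon of smoke and tar, binds the aryl hydrocarbon receptor (AHR), and its metabolites damage DNA.

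Promoter sequences of 7 of the 9 genes were found in RefSeq, with 9 promoters in all, since HNF4A and NR5A2 have 2 each. The 4 shown are the 250 bases before the start site in build GRCh38.p14, written 5′ to 3′ on the gene's strand. HNF4A is shown because its transcripts are divided between both start sites below, and CEBPA and FOXA3 because their levels passed a test. Capitals mark matches to the motifs searched, on either strand.
HNF4A upstream: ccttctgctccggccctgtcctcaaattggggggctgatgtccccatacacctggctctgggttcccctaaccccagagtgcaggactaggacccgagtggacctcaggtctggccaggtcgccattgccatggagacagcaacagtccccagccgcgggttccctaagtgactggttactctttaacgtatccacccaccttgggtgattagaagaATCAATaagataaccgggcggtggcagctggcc
HNF4A downstream: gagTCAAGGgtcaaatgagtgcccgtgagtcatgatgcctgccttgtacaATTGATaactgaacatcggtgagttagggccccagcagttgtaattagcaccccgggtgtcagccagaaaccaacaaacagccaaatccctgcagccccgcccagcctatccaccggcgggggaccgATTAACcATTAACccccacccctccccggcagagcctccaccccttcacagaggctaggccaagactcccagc
CEBPA: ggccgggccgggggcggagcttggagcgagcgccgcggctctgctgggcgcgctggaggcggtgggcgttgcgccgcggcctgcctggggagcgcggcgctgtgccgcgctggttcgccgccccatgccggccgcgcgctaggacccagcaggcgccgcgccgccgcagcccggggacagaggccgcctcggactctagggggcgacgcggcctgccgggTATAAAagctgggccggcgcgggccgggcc
FOXA3: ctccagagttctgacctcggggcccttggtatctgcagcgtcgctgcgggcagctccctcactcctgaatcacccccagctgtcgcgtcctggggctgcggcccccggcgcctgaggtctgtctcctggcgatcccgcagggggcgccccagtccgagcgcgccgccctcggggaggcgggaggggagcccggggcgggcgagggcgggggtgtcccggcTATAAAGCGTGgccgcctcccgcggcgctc

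The upstream HNF4A promoter lies at chr20:44355449-44355698 on the plus strand and the downstream one at chr20:44400989-44401238, and these start sites are 45.5 kb apart. The CEBPA promoter is chr19:33302535-33302784 on the minus strand, and the FOXA3 promoter is chr19:45864076-45864325 on the plus strand. The AHR and ARNT core motif GCGTG occurred in the FOXA3 promoter, 24 bases before the start, overlapping no other match, and in the ONECUT1 promoter. It was not among the letters of the other 7 promoters, and 32.2% of 35116 RefSeq promoters of the same length held it. The TATA box motif TATAAA began 30 bases before the start in both CEBPA and FOXA3, it also matched the upstream NR5A2 promoter, and 10.7% of all promoters held it. ATTGAT, the ONECUT motif, matched both HNF4A promoters and 5.58% of all promoters. GTTAAT, an HNF1 motif, matched the downstream HNF4A promoter at 2 places, the NR1H4 and downstream NR5A2 promoters once each and 6.23% of all promoters, and TCAAGG, an NR5A2 motif, matched the downstream HNF4A promoter once and 10.5% of all promoters. The FOXA motif TNTTTAC was found in the downstream NR5A2 promoter and in 9.58% of all promoters. These matches are descriptions of letters, placed from RefSeq start sites. The NR1H4 promoter precedes ENST00000188403, which starts at 100503360 and held 1.05% of NR1H4 counts. ENST00000321046 and ENST00000392986 held 40.7 and 58.2%, start at 100473916, and had no promoter searched there. The counted CEBPA and FOXA3 transcripts start at 33302564 and 45864260 in GENCODE, inside the promoters shown. The TATAAA matches in both, and GCGTG in FOXA3, do not lie before those starts.

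Total counts were 2592272 to 16533490 per library, and the shallowest was replicate 1 of BaP 24 h. Levels of a gene between groups are given as CPM, counts scaled for library depth by edgeR's TMM method. The exposure was seen in CYP1A1, the AHR-induced P450 enzyme, at 966 and 1060 CPM in BaP 12 h, against 6.57 and 3.49 CPM in vehicle 12 h, and at 376 and 306 CPM in BaP 24 h, against 1.61 and 1.5 CPM in vehicle 24 h. NQO1 and CDKN1A, an antioxidant enzyme and a p53-induced cell cycle inhibitor, rose at both times (log2 fold changes of 1.33 and 2.02 at 12 h and of 1.55 and 1.87 at 24 h). Fewer cells of a kind and less RNA per cell cannot be told apart in such bulk libraries.

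The level corrected for transcript length, in TPM, placed NR0B2 first with 192 ± 80.1 (mean ± SD over all 8 libraries) and HNF4A second with 90.6 ± 16.4. NR0B2 ranged from 101 to 306 and HNF4A from 60.8 to 116, so their ranges overlapped. FOXA2 with 39 ± 2.88, FOXA1 with 33.3 ± 7.65, CEBPA with 31.9 ± 9.39 and FOXA3 with 23.5 ± 4.66 followed, and the ranges of neighbours among these 4 overlapped. Their order differed between groups. In vehicle 12 h CEBPA was highest of the 4, at 47.3 and 42.2 TPM beside 41 and 39.6 TPM for FOXA2, and in vehicle 24 h FOXA3 at 28.9 and 32 TPM overlapped CEBPA at 30.9 and 25 TPM. ONECUT1 at 6.8 ± 1.38 lay below all of them, with a highest library of 8.54 against a lowest FOXA3 library of 18.4. NR1H4 at 2.04 ± 0.479 and NR5A2 at 1.34 ± 0.142 were lowest and overlapped each other. Their low levels rest on few reads, with counts of 9 to 64 for NR1H4 and 7 to 46 for NR5A2 per library.

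**Figure D1:**
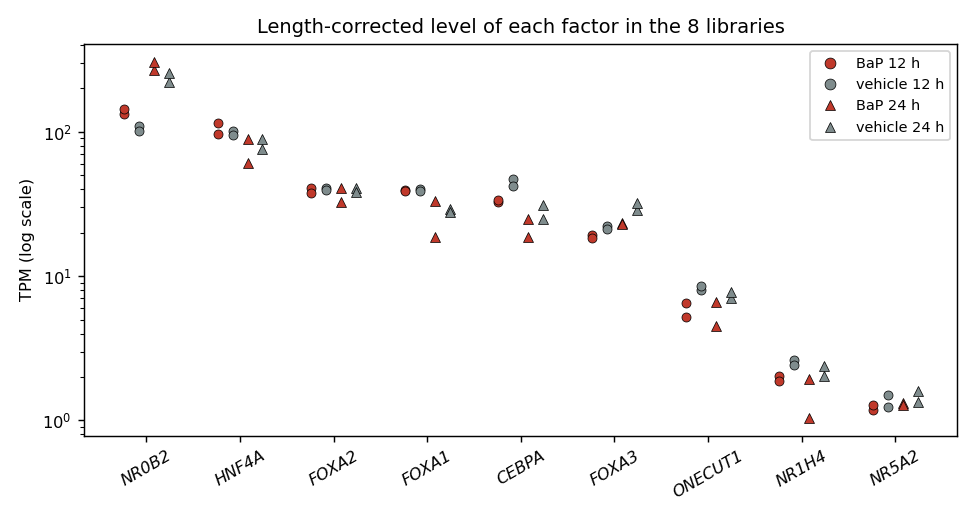
Length-corrected level of each factor (TPM, log axis) in the 8 libraries, with BaP in red beside vehicle in grey, circles for 12 h and triangles for 24 h. NR0B2 and HNF4A lie at the top, and NR1H4 and NR5A2, at means of 2.04 and 1.34, at the bottom.

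After 12 h of BaP, CEBPA was the one factor of the 9 that passed the test, and it fell. CEBPA had 71.4 and 73 CPM in BaP 12 h, against 105 and 96.3 CPM in vehicle 12 h. Both BaP libraries lay below both vehicle libraries, and the change was a log2 fold change of -0.48 ± 0.11 (SE), 28.1% lower, with an adjusted p of 0.014 by edgeR's quasi-likelihood test. The count of 0 higher and 1 lower of 9 stands beside 3.41% of all genes higher and 4.84% lower (8.25% in either direction). At an unadjusted p under 0.05, 1 factor was higher and 2 were lower. No share of all genes is given at that threshold, so these counts have no background to be read against. At the adjusted threshold, DESeq2 likewise called CEBPA alone. The CEBPA call did not hold without replicate 1 of BaP 12 h (-0.46, adjusted p = 0.17), without replicate 2 of BaP 12 h (-0.51, adjusted p = 0.11) or without replicate 1 of vehicle 12 h (-0.41, adjusted p = 0.11), though the size stayed near that of the fit with all libraries.

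ONECUT1 had 11.3 and 8.85 CPM in BaP 12 h, against 13.9 and 15.3 CPM in vehicle 12 h. The groups did not overlap, and the log2 fold change of -0.55 ± 0.18 missed the threshold (adjusted p = 0.068). With only the 4 libraries of that comparison in the fit, it passed at -0.57 (adjusted p = 0.035). Among the FOXA factors, FOXA3 had 31.6 and 29.6 CPM in BaP 12 h, against 36.5 and 36.1 CPM in vehicle 12 h (log2 fold change -0.25 ± 0.14, adjusted p = 0.36). FOXA1 had 95.6 and 91.8 CPM in BaP 12 h, against 96.5 and 97.3 CPM in vehicle 12 h (-0.05 ± 0.13, adjusted p = 0.9). FOXA2 had 72.3 and 66.4 CPM in BaP 12 h, against 72.8 and 75.2 CPM in vehicle 12 h (-0.10 ± 0.11, adjusted p = 0.72). None of the FOXA genes passed, although their BaP libraries lay below their vehicle libraries, by less than 1 CPM for FOXA1 and FOXA2 at the nearest pair.

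The nuclear receptors did not pass at 12 h. HNF4A had 213 and 252 CPM in BaP 12 h, against 224 and 223 CPM in vehicle 12 h, so the vehicle libraries lay between the BaP libraries (log2 fold change 0.05 ± 0.12, adjusted p = 0.88). NR0B2 had 121 and 127 CPM in BaP 12 h, against 98.9 and 94.9 CPM in vehicle 12 h. It was the single factor with both BaP libraries above both vehicle libraries, and its log2 change of 0.36 ± 0.16 missed the threshold (adjusted p = 0.22) but passed with only the comparison's libraries in the fit (0.34, adjusted p = 0.038). NR1H4 had 3.6 and 3.31 CPM in BaP 12 h, against 4.65 and 4.47 CPM in vehicle 12 h (-0.40 ± 0.26, adjusted p = 0.44). NR5A2 overlapped between groups, with 2.32 and 2.23 CPM in BaP 12 h, against 2.14 and 3 CPM in vehicle 12 h (-0.18 ± 0.31, adjusted p = 0.83). By direction alone, 6 factors had both BaP 12 h libraries below both vehicle 12 h libraries and 1 had them above, where 23.9% of all genes lay below and 25.4% above.

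**Figure D2:**
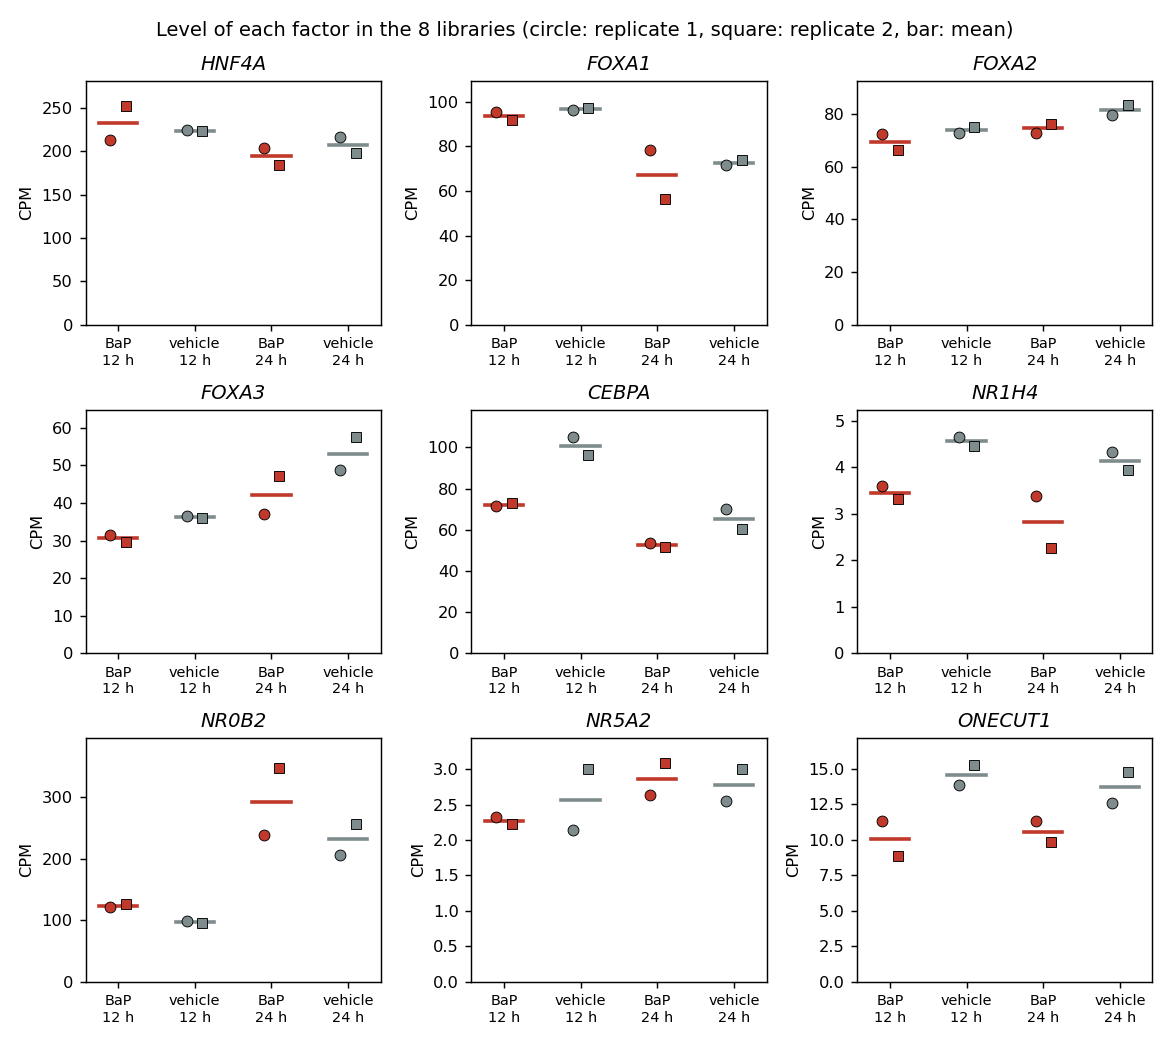
CPM of each factor in BaP and vehicle libraries at 12 h and 24 h (each panel starts at 0, the bar is the mean of 2 libraries). CEBPA had 71.4 and 73 CPM in BaP 12 h, against 105 and 96.3 CPM in vehicle 12 h.

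After 24 h, no factor passed, against 5.30% of all genes called in either direction (3.11% higher and 2.20% lower). DESeq2 called none either. At an unadjusted p under 0.05 there were 1 higher and 2 lower, again with no share of all genes given at that threshold. CEBPA had 53.6 and 51.6 CPM in BaP 24 h, against 69.9 and 60.6 CPM in vehicle 24 h, again without overlap (-0.32 ± 0.12, 20.1% lower, adjusted p = 0.15). ONECUT1 had 11.3 and 9.83 CPM in BaP 24 h, against 12.6 and 14.8 CPM in vehicle 24 h (-0.40 ± 0.20, adjusted p = 0.28). NR1H4 had the largest fitted difference of the 9, with 3.38 and 2.27 CPM in BaP 24 h, against 4.33 and 3.94 CPM in vehicle 24 h (-0.72 ± 0.31, adjusted p = 0.2), from counts of 9 and 34 in BaP 24 h, and the value was 0.01 with all libraries thinned to the shallowest. NR0B2 had 238 and 348 CPM in BaP 24 h, against 207 and 256 CPM in vehicle 24 h, and the groups overlapped (0.36 ± 0.16, adjusted p = 0.22). Without replicate 1 of BaP 24 h, the shallowest library, NR0B2 passed at 0.59 (adjusted p = 0.0032). That fit has 1 BaP 24 h library, assumed to vary like the other groups, and the numbers of all genes called became 1230 higher and 726 lower, against 458 and 324 with all libraries.

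FOXA3 had 37.1 and 47.1 CPM in BaP 24 h, against 48.7 and 57.6 CPM in vehicle 24 h (-0.28 ± 0.14, adjusted p = 0.28). FOXA2 had 72.8 and 76.3 CPM in BaP 24 h, against 79.7 and 83.3 CPM in vehicle 24 h (-0.12 ± 0.11, adjusted p = 0.61). FOXA1 overlapped, with 78.4 and 56.3 CPM in BaP 24 h, against 71.7 and 73.7 CPM in vehicle 24 h (-0.16 ± 0.14, adjusted p = 0.58). HNF4A overlapped too, with 204 and 184 CPM in BaP 24 h, against 216 and 198 CPM in vehicle 24 h (-0.10 ± 0.13, adjusted p = 0.72). NR5A2 had 2.63 and 3.08 CPM in BaP 24 h, against 2.55 and 3 CPM in vehicle 24 h (0.12 ± 0.34, adjusted p = 0.89). FOXA2, FOXA3, CEBPA, NR1H4 and ONECUT1 had both BaP libraries below both vehicle libraries at 12 h and again at 24 h. These 5 stand beside 24.0% of all genes below at 24 h, and 1625 of the 14746 genes tested lay below at both times. No factor lay above at 24 h, beside 23.2% of all genes.

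The median log2 fold change of the 9 factors was -0.18 at 12 h and -0.16 at 24 h, beside medians of 0.02 and 0.01 over all genes tested, and 7 of 9 were negative at each time. The difference between the BaP responses, 24 h minus 12 h, passed for none of the 9, where 0.543% of all genes passed (0.461% higher and 0.0814% lower). None of the 9 had an unadjusted p under 0.05, again with no share of all genes given at that threshold. Fitted differences ran from -0.32 ± 0.40 for NR1H4 to 0.30 ± 0.47 for NR5A2, and the one for CEBPA was 0.15 ± 0.17 (adjusted p = 0.83). Over all genes the fitted change also varied with the genomic span in GENCODE 29. At 12 h the median log2 fold change was -0.39 over 828 genes spanning more than 200 kb and 0.07 over 3030 genes of up to 10 kb. Of the 9, NR0B2 spans 2.5 kb, CEBPA 2.6 kb, FOXA2 4.5 kb, FOXA1 6.1 kb and FOXA3 9.8 kb. ONECUT1 spans 34.1 kb, HNF4A 78.9 kb and NR1H4 90.7 kb, and NR5A2 at 149.8 kb has the longest span. The part of span in the changes of the 9 was not tested.

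**Figure D3:**
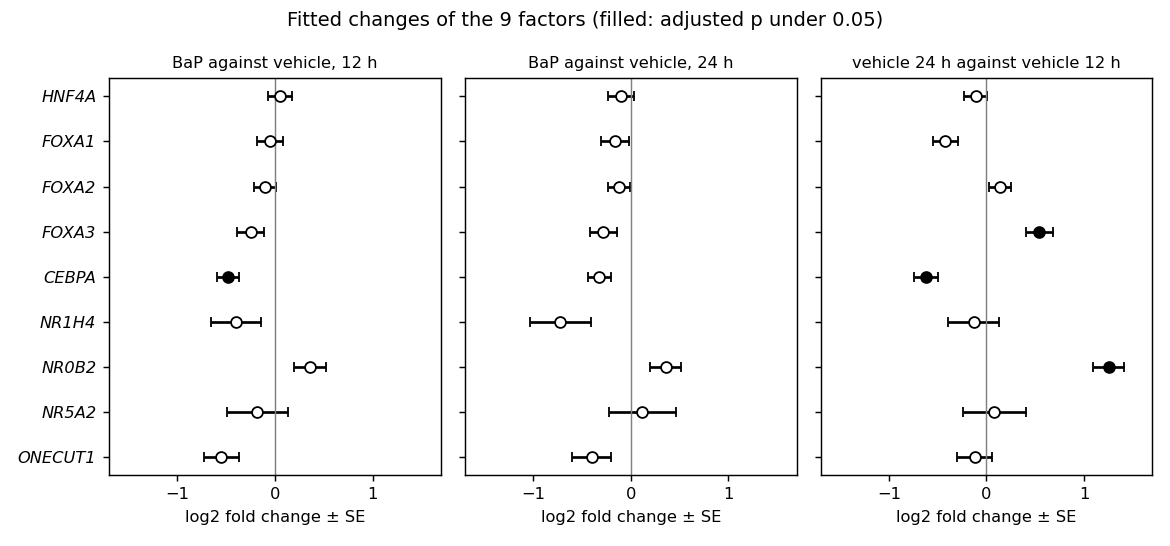
Fitted log2 fold change ± SE of each factor for BaP over vehicle at each time and for vehicle 24 h against vehicle 12 h. Filled points passed an adjusted p of 0.05: CEBPA at 12 h, and FOXA3, CEBPA and NR0B2 between the vehicle times.

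NR0B2, FOXA3 and CEBPA changed between the vehicle times. NR0B2 had 207 and 256 CPM in vehicle 24 h, against 98.9 and 94.9 CPM in vehicle 12 h, and rose by a log2 fold change of 1.25 ± 0.16 (2.38-fold, adjusted p = 7.7e-04). FOXA3 had 48.7 and 57.6 CPM in vehicle 24 h, against 36.5 and 36.1 CPM in vehicle 12 h, and rose by 0.54 ± 0.14 on the log2 scale (adjusted p = 0.04). CEBPA had 69.9 and 60.6 CPM in vehicle 24 h, against 105 and 96.3 CPM in vehicle 12 h, and fell by 0.62 on the log2 scale (SE 0.12, adjusted p = 0.0067). The groups did not overlap for these 3, nor for FOXA1, FOXA2, HNF4A and NR1H4, which were not called. No share of all genes is given for such separation between the vehicle times. The calls were 2 factors higher and 1 lower of 9, against 2.27% and 1.01% of all genes (3.28% in either direction).

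The rise of NR0B2 held without each of the 4 vehicle libraries, with adjusted p values of 9.3e-04 to 0.021. The CEBPA fall was lost without replicate 1 of vehicle 12 h (-0.56, adjusted p = 0.063) and without replicate 2 of vehicle 24 h (-0.52, adjusted p = 0.19). FOXA3 lost its call without replicate 1 or 2 of vehicle 12 h (adjusted p = 0.13 and 0.16) and without replicate 1 or 2 of vehicle 24 h (0.093 and 0.47), and with DESeq2 (0.069) or thinned libraries (0.063). FOXA1 had 71.7 and 73.7 CPM in vehicle 24 h, against 96.5 and 97.3 CPM in vehicle 12 h, at -0.42 ± 0.13 (adjusted p = 0.11). The other 5 factors had log2 fold changes of -0.13 to 0.14.

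NR0B2 overlaps NUDC, a gene on the opposite strand with 12107 counts in all libraries together, and the counting is not stated to use strand. None of the 1156 exonic bases of NR0B2 in GENCODE 29 are shared with exons of NUDC. NUDC had 148 and 186 CPM in BaP 24 h, against 118 and 123 CPM in vehicle 24 h (0.48 ± 0.13, adjusted p = 0.04, and 0.38 without replicate 2 of BaP 24 h, 0.31 and 0.21 without replicates 1 and 2 of vehicle 24 h). Between vehicle 24 h and vehicle 12 h the log2 fold change of NUDC was -0.23 ± 0.13 (adjusted p = 0.41). NUDC was picked for its position and stands outside the rule for named genes. On the opposite strand, HNF4A-AS1 and AL117382.2, which overlap HNF4A, had 94 and 6 counts in all libraries together, and TTC6, which overlaps FOXA1, had 44.

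The genes most like CEBPA over the 8 libraries were DAG1, MCM6 and PIK3C2B, with Pearson correlations of log2 CPM of 0.985, 0.980 and 0.975 among 10097 genes compared. These are descriptions of libraries that share 2 times and 2 treatments. Between vehicle 24 h and vehicle 12 h the log2 fold changes were -0.54 for DAG1, -0.82 for MCM6 and -0.58 for PIK3C2B, beside -0.62 for CEBPA. DAG1 had 282 and 267 CPM in BaP 12 h, against 355 and 340 CPM in vehicle 12 h. It was not called there by edgeR (-0.34 ± 0.12, adjusted p = 0.098), nor was PIK3C2B (-0.45 ± 0.16, adjusted p = 0.12). MCM6 had 25.6 and 30.6 CPM in BaP 12 h, against 39.8 and 39.3 CPM in vehicle 12 h (-0.49 ± 0.14, adjusted p = 0.035, and 0.07 to 0.4 without each of the 4 libraries).

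The transcripts of HNF4A, FOXA2, NR1H4 and NR5A2 that held at least 10% of the gene's counts were tested for a change in proportion, and the other 5 genes had no such pair. None of the 4 passed at 12 h (adjusted p = 1 for each), where 0.322% of 6831 genes did, or at 24 h, where 0.849% did. At 24 h the adjusted p was 0.6 for HNF4A, 0.56 for FOXA2, 0.94 for NR1H4 and 0.97 for NR5A2. FOXA2 passed without replicate 2 of BaP 24 h (adjusted p = 0.0038), where 7.77% of 7039 genes passed, and the shallowest library was then alone in its group. Its transcript ENST00000377115 was listed at 0% of FOXA2 counts in that library and at 25.3% in replicate 2 of BaP 24 h, against 44 and 40.4% in vehicle 24 h. The NR1H4 transcripts ENST00000321046 and ENST00000392986 differ by 1 base in length in GENCODE 29, and their shares swung between 0 and 100% between the 2 libraries of BaP 12 h and between those of vehicle 24 h.

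HNF4A transcripts start at the downstream promoter (P1), which adult liver is known to favour, or at the upstream promoter (P2), used in fetal liver and pancreas. Upstream transcripts held 16.1 and 15.5% of HNF4A counts in BaP 12 h, against 15.5 and 15% in vehicle 12 h. They held 11.9 and 7.35% in BaP 24 h, against 10.3 and 11.6% in vehicle 24 h. The 4 libraries at 24 h all lay below the 4 at 12 h, and BaP and vehicle overlapped at 24 h. This time difference was not tested, and RSEM divides reads that both kinds of transcript share by a model. Downstream transcripts held 86.6% of counts over all libraries. These shares are of counts and are not corrected for transcript length. The main downstream transcript, ENST00000316099, has 6445 bases, and the main upstream one, ENST00000316673, has 1470. The counts therefore do not give the shares of HNF4A transcript molecules, which were not computed by promoter.

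**Figure D4:**
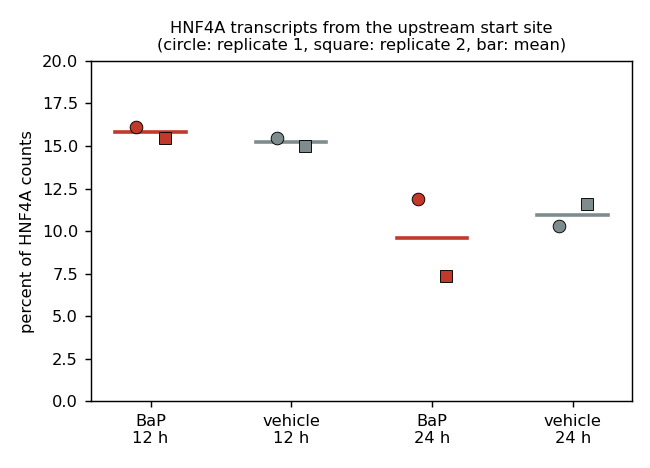
Percent of HNF4A counts assigned to transcripts from the upstream start site in each library, with bars for the mean of 2. The 12 h libraries lie between 15 and 16.1% and the 24 h libraries between 7.35 and 11.9%.

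Other hepatic transcription factors and coactivators numbered 32, of which 31 had an ID and all 31 were tested. After 12 h of BaP 4 rose and 2 fell, beside 3.41% and 4.84% of all genes, with a median log2 fold change of -0.06, beside 0.02 over all genes. RXRA, the partner with which NR1H4 binds DNA, had 48.4 and 53.5 CPM in BaP 12 h, against 82.4 and 72 CPM in vehicle 12 h, and fell by 0.60 on the log2 scale (SE 0.12, adjusted p = 0.0035, and 0.098 without replicate 1 of BaP 12 h). PPARA, the fatty acid receptor, fell by 0.48 (adjusted p = 0.04). Of the C/EBP family, CEBPD rose by 0.74 ± 0.17 (adjusted p = 0.012) and CEBPB by 0.49 ± 0.12 (adjusted p = 0.017), opposite in sign to CEBPA. CEBPG, of the same family, was not called (0.05 ± 0.15, adjusted p = 0.9). ATF5 rose by 0.50 and ESRRA by 0.62 (adjusted p = 0.018 and 0.027). At 24 h CEBPD and CEBPB were not called, at 0.05 ± 0.18 and 0.02 ± 0.13 (adjusted p = 0.92 and 0.95).

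CEBPB had 77.2 and 78.4 CPM in BaP 12 h, against 54.7 and 55.9 CPM in vehicle 12 h. CEBPD had 19.9 and 18.3 CPM in BaP 12 h, against 13 and 9.85 CPM in vehicle 12 h. Of these 6 factors, CEBPB, ESRRA and PPARA lost their calls without each of the 4 libraries in turn, with adjusted p values of 0.079 to 0.15, 0.072 to 0.22 and 0.099 to 0.27. CEBPD reached 0.14 and 0.071 without replicates 1 and 2 of BaP 12 h and 0.12 without replicate 2 of vehicle 12 h. ATF5 reached 0.25, 0.076 and 0.11 without replicate 1 of BaP 12 h, replicate 2 of BaP 12 h and replicate 1 of vehicle 12 h.

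At 24 h none of the 31 rose and 2 fell, beside 3.11% and 2.20% of all genes. RXRA had 46.5 and 45.4 CPM in BaP 24 h, against 63 and 63 CPM in vehicle 24 h (-0.46 ± 0.13, adjusted p = 0.044, and 0.22 to 0.26 without replicate 2 of BaP 24 h or replicate 1 or 2 of vehicle 24 h). RORA, a clock-linked nuclear receptor, fell by 0.89 (SE 0.25, adjusted p = 0.047, and 0.068 to 0.23 without each of the 4 libraries). Between the vehicle times 5 rose and none fell, beside 2.27% and 1.01% of all genes: CEBPD, NR1H3, HHEX, RORA and PPARGC1A. PPARGC1A, a coactivator of HNF4A, had 30.7 and 41.4 CPM in vehicle 24 h, against 15.6 and 15.3 CPM in vehicle 12 h, and RORA rose by 1.48 ± 0.24 (adjusted p = 0.0022). Both kept their calls without each vehicle library, though RORA lost its call when libraries were thinned to the shallowest (1.49, adjusted p = 0.055), while NR1H3 and HHEX lost theirs without each (adjusted p = 0.084 to 0.48 and 0.083 to 0.46). CEBPD lost its call without replicate 2 of vehicle 12 h (0.065) or replicate 1 of vehicle 24 h (0.084).

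Of 24 HNF4A target genes 20 were tested, and the other 4 fell below the filter. After 12 h of BaP none rose and 2 fell, APOB and F7, with a median log2 fold change of -0.21. After 24 h none rose and 4 fell, APOB, APOC3, MTTP and AGT, with a median of -0.26. For this list and the target lists that follow, 3.41% of all genes were higher and 4.84% lower at 12 h, and 3.11% were higher and 2.20% lower at 24 h, with medians of 0.02 and 0.01. APOC3, an apolipoprotein that slows triglyceride clearance, had 49.5 and 53 CPM in BaP 24 h, against 91.7 and 98.6 CPM in vehicle 24 h, and fell by 0.88 on the log2 scale (SE 0.12, adjusted p = 5.2e-04). It kept its call without each of the 4 libraries, with adjusted p values of 1.7e-04 to 0.012. MTTP, which loads lipid onto APOB, fell by 0.72 (adjusted p = 0.024, and 0.11 and 0.22 without replicate 2 of BaP 24 h and replicate 2 of vehicle 24 h). AGT, angiotensinogen, fell by 0.59 (adjusted p = 0.026, and 0.12 and 0.27 without replicates 1 and 2 of vehicle 24 h).

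F7, a clotting protease, fell by 0.73 at 12 h (SE 0.16, adjusted p = 0.009, and 0.08 to 0.11 without replicate 1 or 2 of BaP 12 h or replicate 1 of vehicle 12 h). APOB had 6140 and 6970 CPM in BaP 12 h, against 10200 and 12800 CPM in vehicle 12 h (-0.81 ± 0.18, adjusted p = 0.0097). Its call was lost without replicate 1 or 2 of BaP 12 h (adjusted p = 0.2 and 0.072) or replicate 2 of vehicle 12 h (0.11). At 24 h APOB fell by 0.75 (SE 0.18, adjusted p = 0.025, and 0.13 and 0.25 without replicates 1 and 2 of vehicle 24 h). Levels of HNF4A itself overlapped between BaP and vehicle at both times, as given above.

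**Figure D5:**
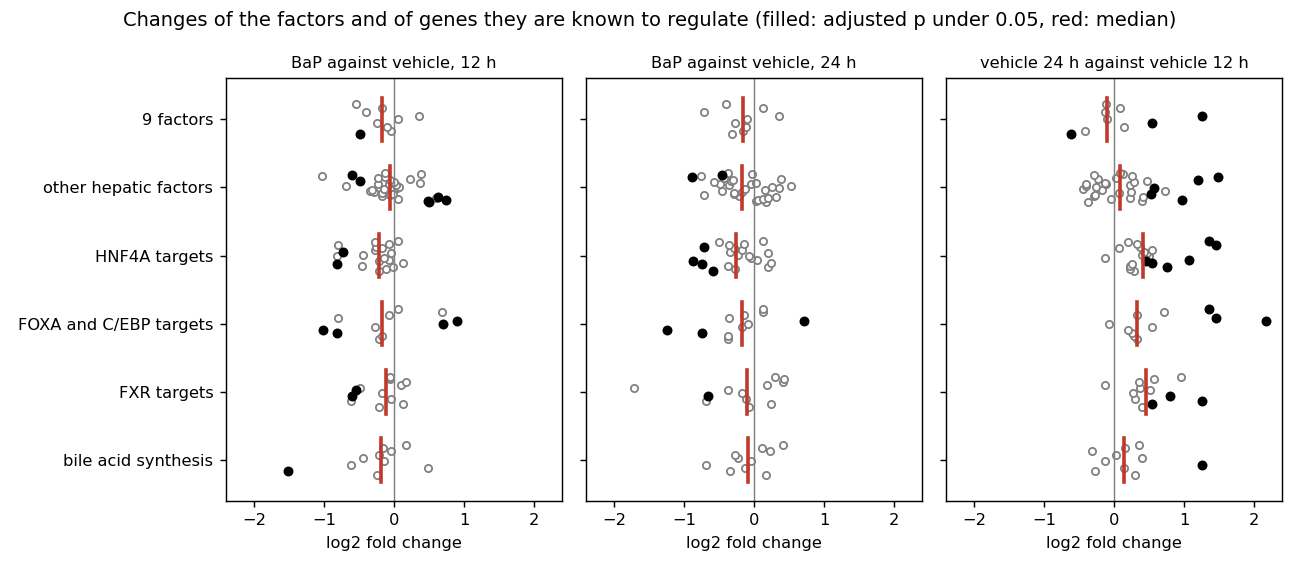
Log2 fold change of each tested gene among the 9 factors, other hepatic factors and lists of genes they regulate, with filled points past an adjusted p of 0.05 and red bars at the median. HNF4A targets have medians of -0.21 at 12 h, -0.26 at 24 h and 0.41 between the vehicle times.

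FOXA and C/EBP alpha target genes numbered 11, and all were tested. After 12 h of BaP 2 rose, IGFBP1 and HAMP, and 2 fell, CPS1 and APOB, which is also on the HNF4A list, and the median log2 fold change was -0.18. CPS1, the entry enzyme of the urea cycle and a C/EBP alpha target, had 14.6 and 18.1 CPM in BaP 12 h, against 28.7 and 37.8 CPM in vehicle 12 h (-1.01 ± 0.16, adjusted p = 6.9e-04). It had 18 and 15.3 CPM in BaP 24 h, against 37.1 and 39.4 CPM in vehicle 24 h (-1.24 ± 0.18, adjusted p = 6.7e-04), and kept its call at each time without any 1 of the 4 libraries. CPS1 spans 201 kb, in the class of over 200 kb, where 278 of 828 genes fell at 12 h and 67 at 24 h. RORA, called at 24 h, spans 741 kb and is in the same class. RXRA spans 123 kb and AKR1D1, given below, 116 kb. Both are in the class of 100 to 200 kb, where 166 of 1473 genes fell at 12 h and 48 at 24 h. The part of span in these changes was not tested. IGFBP1, a secreted insulin-like growth factor binding protein, had 626 and 737 CPM in BaP 12 h, against 368 and 361 CPM in vehicle 12 h (0.90 ± 0.16, adjusted p = 0.0018, and 0.065 without replicate 2 of BaP 12 h). It rose at 24 h too (0.71 ± 0.16, adjusted p = 0.019, and 0.31 without replicate 1 of vehicle 24 h). HAMP, hepcidin, rose at 12 h by 0.70 ± 0.15 (adjusted p = 0.011, and 0.14 and 0.11 without replicate 1 of BaP 12 h and replicate 2 of vehicle 12 h). At 24 h 1 rose and 2 fell, again with a median of -0.18.

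FXR target genes numbered 16, of which 12 were tested, and the bile salt export pump ABCB11, FGF19, SLCO1B3 and UGT2B4 fell below the filter. None rose and 2 fell at 12 h, FGA and FGG, and none rose and 1 fell at 24 h, FGA, with medians of -0.12 and -0.10. FGA, a fibrinogen chain, had 339 and 340 CPM in BaP 12 h, against 514 and 517 CPM in vehicle 12 h (-0.60 ± 0.13, adjusted p = 0.007, and 0.13 and 0.1 without replicates 1 and 2 of BaP 12 h). It had 565 and 561 CPM in BaP 24 h, against 866 and 913 CPM in vehicle 24 h (-0.66 ± 0.13, adjusted p = 0.007, and 0.071 and 0.1 without replicates 1 and 2 of vehicle 24 h). FGG fell by 0.54 at 12 h (adjusted p = 0.035, and 0.087 to 0.32 without each of the 4 libraries). Of 14 genes of bile acid synthesis and uptake 10 were tested, with CYP7A1, CYP7B1, AKR1C4 and SLC10A1 below the filter. AKR1D1, a reductase of bile acid synthesis, had 1.39 and 2.46 CPM in BaP 12 h, against 4.72 and 6.71 CPM in vehicle 12 h, and was the only one of the 10 called there (-1.51 ± 0.34, adjusted p = 0.009, and 0.13 and 0.084 without replicate 1 of BaP 12 h and replicate 2 of vehicle 12 h). None of the 10 passed at 24 h, by edgeR at an adjusted p of 0.05. At an unadjusted p under 0.05, 2 were lower and 0 higher, with no share of all genes given at that threshold.

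Between vehicle 24 h and vehicle 12 h genes of these 4 target lists rose and none fell, beside 2.27% of all genes higher and 1.01% lower and a median of 0.01. Of the HNF4A targets 6 rose (APOA2, APOC2, APOC3, APOM, TTR and PCK1), with a median log2 fold change of 0.41. Of the FOXA and C/EBP targets 3 rose (TTR, PCK1 and IGFBP1, median 0.33), and of the FXR targets 3 (APOC2, FGA and BAAT, median 0.45). BAAT, which joins bile acids to amino acids, was also the 1 gene of bile acid synthesis that rose, and that list had a median of 0.14. IGFBP1 had 1410 and 1850 CPM in vehicle 24 h, against 368 and 361 CPM in vehicle 12 h (2.16 ± 0.17, adjusted p = 7.0e-06), and APOM 241 and 277 CPM in vehicle 24 h, against 130 and 116 CPM in vehicle 12 h (1.07 ± 0.16, adjusted p = 0.0024). IGFBP1 and APOM kept their calls without each vehicle library. APOA2, APOC2, APOC3 and BAAT lost theirs without each of the 4, with adjusted p values of 0.11 to 0.43 for the first 3 and 0.078 to 0.27 for BAAT. TTR lost its call without replicate 1 or 2 of vehicle 12 h (0.17 each) or replicate 2 of vehicle 24 h (0.15). PCK1 lost its call without replicate 2 of vehicle 12 h (0.21) or replicate 1 or 2 of vehicle 24 h (0.4 and 0.14), and FGA without replicate 2 of vehicle 24 h (0.074).

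The list genes called between vehicle times, and PPARA and ESRRA, were named because they passed and stand outside the rule for named genes. Hepatocyte markers, which check the label, were detected: all 12 were tested, and ALB, albumin, had 2080 and 2080 CPM in BaP 12 h, against 2280 and 2440 CPM in vehicle 12 h. Their summed level was 24300 and 25600 CPM in BaP 12 h, against 30700 and 32500 CPM in vehicle 12 h, and 28700 and 34100 CPM in BaP 24 h, against 37300 and 42700 CPM in vehicle 24 h. APOB alone of the 12 passed at each time, and it fell. It weighs heavily in the sum, with means of 6550 CPM in BaP 12 h, against 11500 in vehicle 12 h, and 8140 in BaP 24 h, against 13600 in vehicle 24 h. By sign, 10 of the 12 were negative at 12 h and 9 at 24 h. AMBP went the other way at each time (0.36 and 0.48, adjusted p = 0.26 and 0.12). Markers of other liver cell types are given because some moved with BaP. Cholangiocyte markers, of which 4 of 6 were tested, summed to 1350 and 1260 CPM in BaP 12 h, against 1260 and 1080 CPM in vehicle 12 h, and to 1600 and 1610 CPM in BaP 24 h, against 1180 and 1100 CPM in vehicle 24 h. The 4 tested did not move together at 24 h. SPP1 had a mean of 747 CPM in BaP 24 h, against 343 in vehicle 24 h, and KRT19 510, against 402. SOX9 had a mean of 293 CPM in BaP 24 h, against 337 in vehicle 24 h, and EPCAM 54.2, against 60.4. Of these, SPP1 alone passed. Stellate and fibroblast markers, with 2 of 5 tested, summed to 28.8 and 20 CPM in BaP 12 h, against 59.9 and 35.3 CPM in vehicle 12 h, and to 31.5 and 25.6 CPM in BaP 24 h, against 57.1 and 39.6 CPM in vehicle 24 h. Immune markers, with 2 of 5 tested, summed to 49.4 and 45.6 CPM in BaP 12 h, against 42.4 and 38.4 CPM in vehicle 12 h, and to 58.9 and 61.6 CPM in BaP 24 h, against 39.4 and 38.6 CPM in vehicle 24 h. Endothelial markers, with 1 of 4 tested, summed to at most 3.19 CPM in any library. CFTR, KDR, DCN, LUM, CD3E and CD163 had no count in any library, and PTPRC and VWF had at most 2 in a library. No count allows up to 3 counts, which is 1.13 CPM in the shallowest library and 0.201 CPM in the deepest, for counting error alone. Their part in the results on the 9 factors was not tested.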

How the data were processed

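The 8 libraries were made from poly-A RNA of HepG2 cells. Reads were aligned with Bowtie 0.12.7 and divided between transcripts with RSEM 1.1.7, per the submitters' processing notes, which also name edgeR. The annotation was Ensembl release 58 per the file names, and no genome build is named in the sources used here. The deposited estimated counts are not normalized, and the deposited fractions are RSEM's shares of transcript molecules, corrected for length. Fractions were scaled to TPM.

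Estimated counts were rounded and tested in R 4.3.3 with edgeR 4.0.16: filterByExpr (minimum count 10, total 15), trimmed mean of M-values, a robust quasi-likelihood fit of all 8 libraries with 1 mean per group, and Benjamini-Hochberg adjustment over 14746 genes at 0.05, two-sided. The SE is the log2 fold change divided by the square root of F. Proportions of transcripts were tested with diffSpliceDGE. The fits were tested on simulated data. Alternatives used DESeq2 1.42.0, other settings and left-out libraries. IDs were named from gene symbols, reaching 83.2% of IDs, with spans from GENCODE 29.

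The members and gene lists were chosen with earlier results of these data known. The rule for named genes took the 9 factors, up to 4 genes per list with the smallest p at 12 h and at 24 h, the check genes CYP1A1, NQO1, CDKN1A, ALB, APOA1 and AFP, and the 3 genes most correlated with a called factor. P-values of the main fit rest on the spread between the 2 libraries within a group. That spread is estimated for all 4 groups together, not for the compared groups alone. A fit that leaves out 1 library assumes that the lone library left in its group varies like the other groups.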

Additional observations from a re-analysis of the deposited data

How the results depend on the processing

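No called value changed sign under any alternative run. Values of the 9 factors that had not passed changed sign 27 times, 0 of them passing. With 1 library left out, log2 fold changes at 12 h ran from -0.09 to 0.17 for HNF4A (-0.03 thinned) and from -0.40 to 0.07 for NR5A2. At 24 h they ran from -0.37 to 0.11 for FOXA1 and from -0.05 to 0.21 for NR5A2, and NR1H4 became 0.01 when thinned. Differences of responses ran from -0.31 to 0.16 for FOXA1, -0.07 to 0.04 for FOXA2 (0.18 thinned), -0.26 to 0.09 for FOXA3, -0.47 to 0.09 for NR1H4 (0.30 thinned), -0.32 to 0.24 for NR0B2 (0.07 thinned) and -0.01 to 0.33 for ONECUT1. Between vehicle times they ran from -0.15 to 0.32 for NR5A2 and from -0.22 to 0.02 for ONECUT1. DESeq2's size factors and posterior mean counts changed no count of calls by over 1.5 times. At 12 h, genes higher numbered 503, against 292 with DESeq2's test, 236 with libraries thinned to the shallowest and 174 to 335 with 1 library left out. Genes lower numbered 713, against 360 when thinned and 250 to 566 with 1 left out. Members higher and lower numbered 0 and 1, against 1 (NR0B2) and 2 (CEBPA and ONECUT1) with only the comparison's libraries, and 0 to 1 lower with 1 left out. At 24 h, 458 genes were higher, against 304 with DESeq2's test, 237 thinned, 235 with only the comparison's libraries and 95 to 1230 with 1 left out. Genes lower numbered 324, against 559 with no filter, 151 thinned, 144 with only the comparison's libraries and 74 to 726 with 1 left out, and members higher numbered 0, against 0 to 1. For the difference of responses, 68 genes were higher, against 171 with no filter, 31 thinned and 24 to 249 with 1 left out, and 12 were lower, against 69, 6 and 4 to 99. Between vehicle times, 334 genes were higher, against 210 thinned, 511 with only those libraries and 81 to 187 with 1 left out, and 149 were lower, against 341 with no filter, 61 thinned, 342 with only those libraries and 6 to 82. Members higher numbered 2, against 1 with DESeq2's test, 1 thinned and 1 to 1 with 1 left out. Members lower numbered 1, against 2 (FOXA1 and CEBPA) with no filter or only those libraries, and 0 to 1. Genes with changed transcript proportions numbered 22 at 12 h, against 13 by Simes' test, 2 with the replicate block and 20 to 39, and 58 at 24 h, against 27, 16 and 46 to 547. The replicate numbers were not shown to pair libraries, since replicate differences correlated at 0.42 between BaP 12 h and vehicle 12 h but at 0.06 between BaP 24 h and vehicle 24 h over 7299 genes. The replicate block changed no count of members called, while RXRA at 24 h lost its call (adjusted p = 0.059), FGG and CD14 at 12 h lost theirs (0.052 and 0.057), as did NUDC (0.059) at 24 h and NR1H3 and APOA2 between vehicle times (0.05 and 0.067), and COL1A1 gained one at both times (0.0031 and 0.0021). Among called genes named here, DESeq2's test ended the calls of ATF5, ESRRA, PPARA, MCM6 and CD14 at 12 h, RXRA, RORA and CD14 at 24 h, and FOXA3, APOC3, HHEX and NR1H3 between vehicle times (adjusted p = 0.052 to 0.29). Thinning ended those of AKR1D1, CEBPB, ESRRA, F7, FGG, MCM6, PDGFRB and CD14 at 12 h, MTTP, RXRA, RORA and CD14 at 24 h, and FOXA3, APOC3, NR1H3, PCK1, RORA and TTR between vehicle times (0.055 to 0.36). Only the comparison's libraries ended those of CD14 at 12 h and AGT, APOB, CD68, FGA, IGFBP1, NUDC, RORA and RXRA at 24 h (0.054 to 0.13). With posterior mean fractions FOXA2 averaged 31.8 and NR5A2 2.53 TPM, and NR5A2 and NR1H4 exchanged ranks. The causes of these shifts were not tested, apart from fewer samples or reads by construction. Depth limits NR1H4 and NR5A2, and counts as low as 7 leave SEs of 0.26 to 0.34 for BaP against vehicle and between vehicle times. For the difference of responses their SEs are 0.40 and 0.47.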

Other observations

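Some markers of other liver cell types passed the test in BaP. SPP1, osteopontin, had 618 and 650 CPM in BaP 12 h, against 384 and 397 CPM in vehicle 12 h (log2 fold change 0.70 ± 0.13, adjusted p = 0.0025, and 0.064 without replicate 2 of BaP 12 h). It had 726 and 768 CPM in BaP 24 h, against 358 and 327 CPM in vehicle 24 h (1.12 ± 0.13, adjusted p = 1.2e-04), and held there without each library. KRT19 and EPCAM, epithelial genes of bile ducts, were not called at either time, and KRT19 passed at 12 h with no filter on low counts (-0.49, adjusted p = 0.0089). Without replicate 2 of vehicle 12 h both passed at 12 h, KRT19 at -0.78 (adjusted p = 0.017) and EPCAM at 0.51 (adjusted p = 0.044).

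CD14, a coreceptor for bacterial lipopolysaccharide, had 7.13 and 5.55 CPM in BaP 24 h, against 1.95 and 2.25 CPM in vehicle 24 h (1.54 ± 0.32, adjusted p = 0.0096, and 0.17 and 0.055 without replicates 1 and 2 of vehicle 24 h). At 12 h it passed at 1.04 ± 0.31 (adjusted p = 0.048, and 0.14 to 0.37 without each of the 4 libraries). Neither CD14 call held with DESeq2 (adjusted p = 0.052 at 24 h and 0.29 at 12 h) or with thinned libraries (0.28 and 0.33). CD68, a lysosomal protein, rose by 0.56 ± 0.13 at 24 h (adjusted p = 0.019, and 0.16 to 0.19 without replicate 2 of BaP 24 h or replicate 1 or 2 of vehicle 24 h). PDGFRB, a growth factor receptor of stromal cells, had 8.95 and 9.08 CPM in BaP 12 h, against 17.3 and 15.9 CPM in vehicle 12 h (-0.88 ± 0.16, adjusted p = 0.002), and it kept its call without each library but not when libraries were thinned (adjusted p = 0.33).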
